A study of Mus musculus with 13 samples.

Results

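Ceruloplasmin and 9 other genes of iron handling were followed across bone marrow plasma cells of normal mice and of mouse models of multiple myeloma. The 10 genes are 10 of the 22997 gene symbols in the count table, and all 10 were found by symbol. Ceruloplasmin (Cp) was selected on a measured value, its higher level in MYC transgenic than in wild-type cells, so its levels in those groups are given as a description with no test. The other 9 genes (Tfrc, Slc11a2, Steap3, Slc40a1, Fth1, Ftl1, Hmox1, Ireb2 and Aco1) were added for their function and were tested in every comparison. They were chosen with earlier results of these data known.

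Iron enters most cells bound to transferrin through the transferrin receptor, is reduced and carried into the cytosol by endosomal proteins, and is stored in ferritin or exported by ferroportin. Ceruloplasmin is a copper-bearing ferroxidase that oxidises exported iron so that transferrin can bind it. When iron is scarce, iron regulatory proteins bind hairpins called iron responsive elements in messenger RNA, where they block translation from the 5′ untranslated region and stabilise the RNA from the 3′ untranslated region. Red cell precursors take up much iron for haemoglobin, and marrow macrophages recycle it from old red cells, so RNA of both cell types bears on these genes in sorted marrow.

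Each library came from 50000 bone marrow cells sorted as CD138+, CD45.2+ and B220-, from mice on the C57/BL6 strain. WT denotes 3 libraries of wild-type mice. V denotes 3 libraries of mice with Vκ*MYC, a human MYC transgene that becomes active in germinal centre B cells, together with IgG1-Cre. VQ denotes 5 libraries from recipients of tumours that carried Vκ*MYC, IgG1-Cre and an Nras LSL Q61R/+ allele, a mutant Nras behind a stop that Cre removes. The VQ tumours were 3 transplanted lines, D1 with 2 recipients, D4 with 1 and D5 with 2, and recipients of a line are not separate tumours. tVk12653 denotes 2 recipients of cells of 1 transplantable line with Vκ*MYC. Donor cells were sorted from transplant recipients in VQ and tVk12653 but not in WT or V, so transplantation and genotype cannot be told apart between them. The labels do not say whether the WT and V libraries of a group came from separate animals, so p-values measure the spread between these libraries, which may in part be technical.

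The letters of an iron responsive element were searched for in the untranslated regions of the 10 genes, because these hairpins tie several of them to the iron regulatory proteins. The search took a C, any 5 bases, the loop CAGTGN and 5 bases that pair with the first 5 (G-T pairs allowed), on the transcript strand. It matched 0.148% of 20899 genes in the 5′ untranslated region and 0.614% of 21022 genes in the 3′ untranslated region (GENCODE vM21 transcripts, GRCm38). Of the 10 genes, Fth1, Ftl1 and Slc40a1 had 1 match each in the 5′ region and Tfrc had 4 in the 3′ region. The other 6 genes had none of these letters in either region, which says nothing of other forms of the element. The matches are printed 5′ to 3′ with 5 bases on either side of the stem, with the 6-base loop in capitals.
Fth1, chr19:9982733-9982759, plus strand: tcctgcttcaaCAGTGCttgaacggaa
Ftl1, chr7:45459780-45459806, minus strand: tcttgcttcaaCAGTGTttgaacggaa
Slc40a1, chr1:45925466-45925492, minus strand: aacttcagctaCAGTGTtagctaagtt
Tfrc site 1, chr16:32631220-32631246, plus strand: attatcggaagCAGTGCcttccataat
Tfrc site 2, chr16:32631599-32631625, plus strand: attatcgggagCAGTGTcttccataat
Tfrc site 3, chr16:32631664-32631690, plus strand: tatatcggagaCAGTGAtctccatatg
Tfrc site 4, chr16:32631711-32631737, plus strand: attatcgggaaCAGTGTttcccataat

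Total counts were 2096815 to 8512281 per library, and a level of 3 counts equalled 0.326 to 1.48 CPM, read counts scaled to a common library total. Levels below are CPM scaled by trimmed means of M values. Sdc1, which encodes CD138, stood at 365 to 1425 CPM. Myc stood at 34.9 to 72.1 CPM in WT, 307 to 430 in the V libraries, 686 to 1663 in VQ and 7990 and 8190 in tVk12653, but how reads of the human MYC transgene were counted is not known, so mouse and human reads cannot be told apart in these levels. Red cell precursor RNA set the WT libraries apart. The summed level of 17 erythroid markers (of 20 listed, with 3 symbols not in the table) was 188, 1231 and 313 CPM in WT replicates 1, 2 and 3, against 20.7 to 64.8 in V, 7.66 to 32.2 in VQ and 13.9 and 15.2 in tVk12653. In D4, 6 of these 17 markers were at 0, and in tVk12653 5 were at 0 in both libraries. A summed neutrophil list also ranged from 3407 to 9383 CPM in WT and from 1849 to 3700 in V, against 86.3 to 1254 in VQ and tVk12653. Sex-linked RNA differed between WT and V as well: the Y-linked Ddx3y stood at 47.8 to 141 CPM in WT and at 0 in every V library.

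Of the 9 tested genes, Slc40a1 and Hmox1 fell in both tumour models against both WT and V, and no other gene was called in all 4 of those comparisons. Calls are edgeR quasi-likelihood tests with a Benjamini-Hochberg adjusted p under 0.05 over all genes tested, and the 3 VQ lines entered with the recipients of a line summed. The 2 tVk12653 recipients of 1 line entered singly, so p-values of that arm do not cover the spread between separate tumours. In VQ against WT 1 of the 9 was higher and 3 were lower, where 17.3% and 15.1% of all 11933 genes were. In tVk12653 against WT 1 was higher and 3 lower (12.6% and 15.7% of all genes). In VQ against V 2 were higher and 2 lower (15.6% and 12.4%), and in tVk12653 against V 1 was higher and 2 lower (10.3% and 12.9%). In VQ against tVk12653, where Cp was tested too, 0 of 10 were higher and 1 was lower (5.97% and 4.19%). Line D1 against line D5 had 2 of 10 higher and 1 lower (20.0% and 21.7% of 12835 genes). In V against WT edgeR called 0 of the 9 in either direction and 0% of all genes, with 2 of the 9 (Tfrc and Steap3) and 628 of 11933 genes at an unadjusted p under 0.05, and DESeq2 called 42 genes in all. These comparisons share their WT, V, VQ or tVk12653 libraries, so their counts are not independent.

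**Figure D1:**
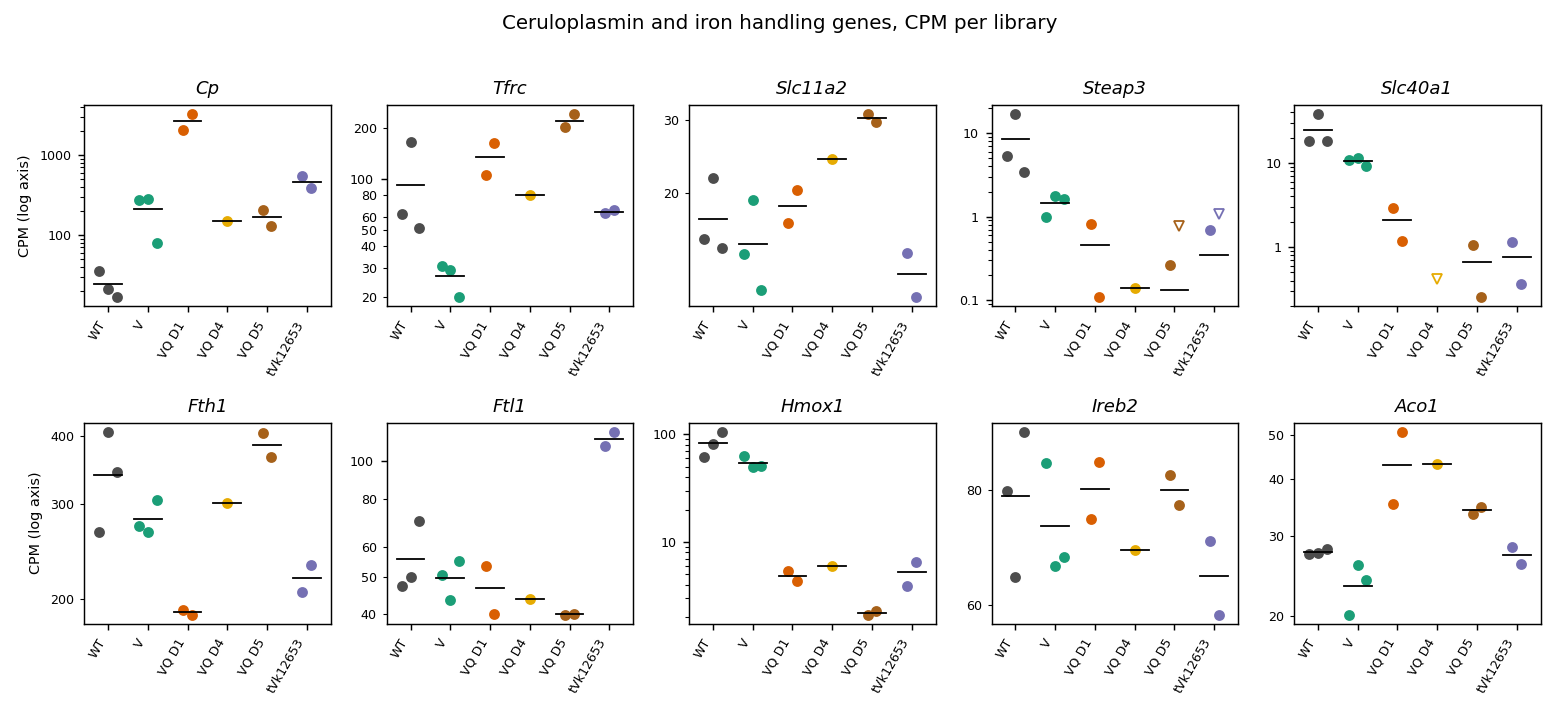
Level of each of the 10 genes in CPM (log axis) in the 13 libraries by group; points are libraries, lines are group means, and an open triangle is a library at 0, drawn at its level of 3 counts. Cp was highest in the 2 D1 recipients (2079 and 3231 CPM), Hmox1 and Slc40a1 were lower in every VQ and tVk12653 library than in any WT or V library, and Ftl1 was highest in tVk12653 (110 and 119 CPM).

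Cp (ENSMUSG00000003617, chr3:19957054-20009145) stood highest in line D1 and lowest in WT. It measured 35.2, 21.3 and 16.8 CPM in the WT libraries and 272, 279 and 80.4 CPM in V. The VQ recipients held 2079 and 3231 CPM in D1, 148 in the D4 recipient and 204 and 128 in D5, and the tVk12653 recipients held 539 and 383 CPM. Every library of the other 5 groups exceeded every WT library, the D1 recipients exceeded all other libraries, and V, D4 and D5 overlapped. The order of the group means was D1, tVk12653, V, D5, D4 and WT, with 109-fold, 18.9-fold, 8.61-fold, 6.80-fold and 6.08-fold the WT mean in the first 5. Of the neighbours, D5 and D4 lay within the range of V, and D4 within that of D5. Per kilobase of exon, Cp stood at 278 ± 85.1 CPM in D1 (SD, n = 2), above Fth1 at 54.5 ± 0.756, whereas in WT (n = 3) it stood at 2.55 ± 1.00 against 97.7 ± 20.4 for Fth1.

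Tests of Cp that did not involve V or WT showed that the tumour lines differed. D1 exceeded D5 by 4.0 ± 0.63 on the log2 scale (SE, edgeR adjusted p = 9.26e-04), or 16.0-fold by the group means. That difference was called in each alternative run, at 3.66 to 4.38 with 1 recipient left out. VQ against tVk12653 gave a log2 difference of 1.28 ± 1.16 (edgeR adjusted p = 0.486), which does not show that these arms were alike. Without line D1 the difference turned to -1.55 (edgeR adjusted p = 0.0782), so its sign rested on D1.

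Over the 13 libraries, the genes with the most similar pattern to Cp by Pearson correlation of log2 CPM (of 12318 genes compared) were Cfap74, Cdkn1a, Zmat3, Wdr54 and Rexo2, with r of 0.921, 0.919, 0.919, 0.918 and 0.908. Cdkn1a encodes the cyclin-dependent kinase inhibitor p21, Zmat3 an RNA-binding zinc finger protein, and Rexo2 an oligoribonuclease. Zmat3 stood at 24.4 to 34.5 CPM in WT, 42.5 to 67.9 in the V libraries, 223 and 228 in D1, 105 in the D4 recipient, 97.8 and 107 in D5, and 125 and 139 in tVk12653. Cdkn1a stood at 1.99 to 7.74 CPM in WT, 4.21 to 15.3 in the V libraries, 65.3 and 84.0 in D1, 18.6 to 23.7 in D4 and D5, and 19.9 and 21.0 in tVk12653. Both were highest in D1 and lowest in WT, with no overlap between WT and the tumours. That order is favoured by their choice for likeness to Cp in these same libraries. The points share their libraries and depth, and the r values are a description. Among the other 9 iron genes r with Cp ran from -0.78 (Fth1) to 0.44 (Aco1).

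Of the uptake genes, Tfrc, the transferrin receptor (ENSMUSG00000022797, chr16:32608920-32632794), was lowest in V and highest in D5. It measured 61.9, 164 and 51.7 CPM in WT and 30.5, 29.1 and 20.1 CPM in the V libraries. The VQ recipients held 105 and 163 CPM in D1, 79.9 in the D4 recipient and 201 and 241 in D5, and tVk12653 held 62.6 and 65.5 CPM. Every V library lay below every other library, whereas WT spanned the levels of D1, D4 and tVk12653 through its replicate 2. The order of the means was D5, D1, WT, D4, tVk12653 and V, and of these WT overlapped both neighbours, D1 and D4. Tfrc rose in VQ against V by 2.55 ± 0.51 (log2, edgeR adjusted p = 0.00661) in all 3 lines and in each alternative run. In VQ against WT the log2 difference was 0.76 ± 0.48 (edgeR adjusted p = 0.247), and without WT replicate 2 it was 1.46 (adjusted p = 0.0362). In tVk12653 against V it was 1.26 ± 0.54 (edgeR adjusted p = 0.117), which was called with the replicate block over all 13 libraries (1.04, adjusted p = 0.0227) and when only those arms entered the fit (1.27, adjusted p = 6.70e-04). The block enters recipients singly and matches tumour recipients by a number with no known meaning, here and for the genes below. In VQ against tVk12653 Tfrc was at 1.29 ± 0.55 (edgeR adjusted p = 0.156), and the block called it (1.11, adjusted p = 0.00715). D1 against D5 gave -0.71 ± 0.46 (edgeR adjusted p = 0.246), which was called without the filter on low counts (adjusted p = 9.90e-04), with D1 and D5 alone (0.0253) and without WT replicate 2 (0.0109).

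The WT library with the highest Tfrc was the one with the most erythroid RNA. WT replicate 2 held 164 CPM of Tfrc and 1231 CPM of the erythroid markers, against 61.9 and 51.7 CPM of Tfrc and 188 and 313 CPM of markers in the other WT libraries. In D1 and D5 Tfrc reached 105 to 241 CPM with 7.66 to 32.2 CPM of erythroid markers. The part of erythroid RNA in the WT levels was not tested, and in bulk samples fewer cells of a type and less RNA per cell cannot be told apart.

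**Figure D2:**
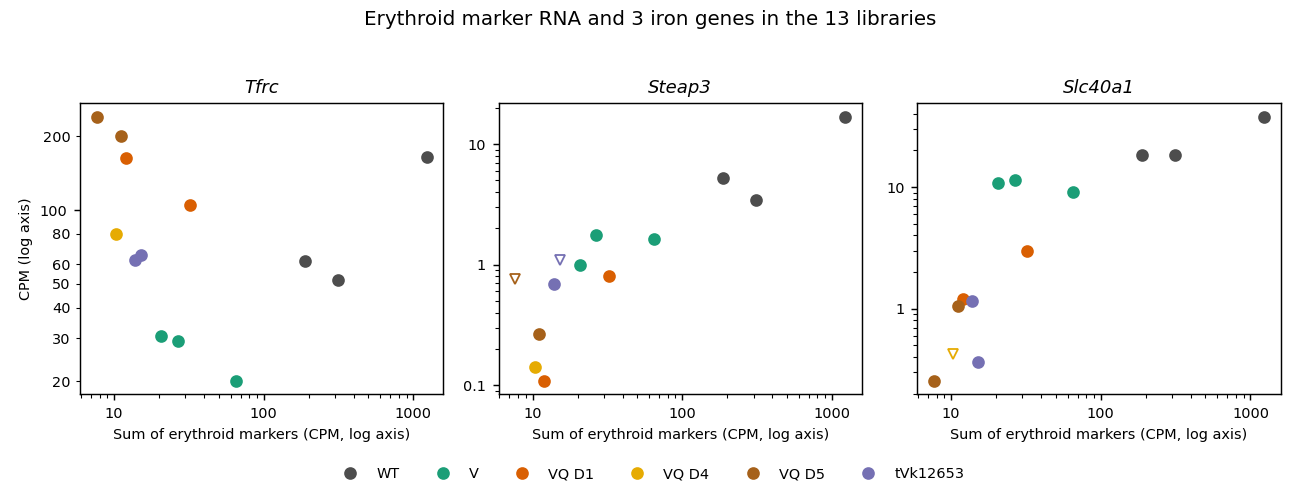
Level of Tfrc, Steap3 and Slc40a1 (CPM, log axis) against the summed level of 17 erythroid markers (CPM, log axis) in the 13 libraries, with 1 point per library coloured by group and an open triangle for a library at 0, drawn at its level of 3 counts. WT replicate 2, at 1231 CPM of erythroid markers, held the most Steap3 and Slc40a1 of all libraries, while Tfrc was also high in the D1 and D5 recipients, which held 7.66 to 32.2 CPM of these markers.

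Steap3 (ENSMUSG00000026389, chr1:120190757-120272705), the endosomal reductase that converts iron for transport after transferrin uptake, fell in the tumours against WT. It measured 5.27, 16.9 and 3.41 CPM in WT, 0.985, 1.78 and 1.62 in the V libraries, 0.806 and 0.109 in D1, 0.140 in the D4 recipient, 0.265 and 0 in D5, and 0.693 and 0 in tVk12653. All WT libraries lay above all others, and each VQ and tVk12653 library had at most 3 counts. WT had 15, 46 and 12 counts and the V libraries 2, 5 and 5. Steap3 thus passed the filter on low counts through WT alone, so against WT a fall was the only call it could give. The log2 difference was -5.16 ± 0.96 in VQ against WT (edgeR adjusted p = 0.00312) and -4.35 ± 1.14 in tVk12653 against WT (adjusted p = 0.0181). Without WT replicate 2 these became -4.20 (adjusted p = 0.0121) and -3.38 (adjusted p = 0.0549), and the tVk12653 call was also lost without tVk12653 replicate 2 (adjusted p = 0.112). In VQ against V Steap3 stood at -2.66 ± 0.98 (edgeR adjusted p = 0.0579). It was called there by DESeq2 (adjusted p = 0.0320), with the replicate block over all 13 libraries (-3.11, edgeR adjusted p = 0.0374) and without WT replicate 2 and D1 replicate 1 (0.0253).

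Slc11a2 (ENSMUSG00000023030, chr15:100387898-100425072), the transporter DMT1 that moves ferrous iron out of endosomes, was called in no comparison between arms or lines, but some alternatives called it. Its levels were 14.8 to 21.7 CPM in WT, 11.7 to 19.2 in the V libraries, 16.9 and 20.3 in D1, 24.1 in the D4 recipient, 31.0 and 29.6 in D5, and 14.3 and 11.2 in tVk12653. D5 and D4 lay above every other library, WT, V and D1 overlapped, and tVk12653 overlapped with V. VQ against tVk12653 gave the largest log2 difference of its tests, 1.00 ± 0.34 (edgeR adjusted p = 0.0878), and D1 against D5 gave -0.69 ± 0.28 (adjusted p = 0.0595). With the replicate number as a block over all 13 libraries, a fit that enters recipients singly, both were called (edgeR adjusted p = 0.0104 and 0.0463). Slc11a2 in D1 against D5 was also called by relative log expression factors (adjusted p = 0.0474), with D1 and D5 alone (0.0259) and without WT replicate 2 (0.0438).

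The exporter Slc40a1, or ferroportin (ENSMUSG00000025993, chr1:45908068-45926523), fell in both tumour models. Its 3 WT libraries held 18.3, 37.9 and 18.2 CPM and its V libraries 10.8, 11.4 and 9.08 CPM. The VQ recipients held 2.96 and 1.19 CPM in D1, 0 in the D4 recipient and 1.06 and 0.255 in D5, and tVk12653 held 1.15 and 0.362 CPM. The 0 in D4 allows up to 0.421 CPM at 3 counts, which covers counting error alone. WT, V and the tumours formed 3 ranges that did not overlap, and the tumours had at most 11 counts per library.

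Slc40a1 differed from WT by -4.78 ± 0.86 in VQ (log2, edgeR adjusted p = 0.00313) and by -4.90 ± 1.10 in tVk12653 (adjusted p = 0.0104). Against V the log2 differences were -3.54 ± 0.84 (VQ, edgeR adjusted p = 0.0128) and -3.66 ± 1.07 (tVk12653, adjusted p = 0.0344). With 1 tVk12653 library left out, the lone library being assumed to vary like the other groups, the calls of that line were lost (adjusted p = 0.0610 and 0.0905 against WT, and 0.119 and 0.197 against V). Leaving out any V library also ended the call of tVk12653 against V (adjusted p = 0.0694 to 0.0743). Without line D1 the fall in VQ was -6.06 against WT and -4.84 against V, and the VQ call against V was lost when only those arms entered the fit (adjusted p = 0.0620).

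Heme oxygenase 1 (Hmox1, ENSMUSG00000005413, chr8:75093621-75100589), which frees iron from heme, fell in both tumour models. It measured 61.2, 81.7 and 106 CPM in WT and 63.0, 49.8 and 50.2 in the V libraries. The tumours held 5.37 and 4.34 CPM in D1, 6.03 in the D4 recipient, 2.12 and 2.30 in D5, and 3.92 and 6.51 in tVk12653. WT and V overlapped, and every tumour library lay far below both. The log2 differences were -4.22 ± 0.38 in VQ against WT (edgeR adjusted p = 1.32e-04) and -4.01 ± 0.46 in tVk12653 against WT (adjusted p = 4.77e-04). Against V they were -3.62 ± 0.37 (VQ, edgeR adjusted p = 3.06e-04) and -3.41 ± 0.45 (tVk12653, adjusted p = 0.00125). All 4 calls held in each alternative run. D1 exceeded D5 by 1.09 ± 0.42 (edgeR adjusted p = 0.0485), a call that was lost in each of the 4 fits with 1 recipient left out (adjusted p = 0.0738 to 0.168). It was also lost for Hmox1 by relative log expression factors (adjusted p = 0.0579), by DESeq2 (0.0802), with D1 and D5 alone (0.0839), with the replicate block (0.0617) and without WT replicate 2 (0.0567), while the log2 difference stayed at 0.97 to 1.28.

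Slc40a1 and Hmox1 are abundant in macrophages that recycle iron, and several markers of such cells were also lower in the tumours than in WT. Of 15 listed macrophage markers 12 were tested, and 9 were lower in VQ and 9 in tVk12653 than in WT. Against V, 2 were lower in VQ and 6 in tVk12653. The shares lower over all genes were 15.1%, 15.7%, 12.4% and 12.9% in that order, so the count of 2 in VQ against V lies near the background. The median log2 difference of the 12 markers in VQ against V was nevertheless -1.81, against 0.08 over all genes. Vcam1, an adhesion molecule of these macrophages, stood at 23.6 to 34.6 CPM in WT, 13.1 to 17.2 in the V libraries, 2.06 and 8.06 in D1, and 0.362 to 1.79 in D4, D5 and tVk12653. Mrc1, a mannose receptor of macrophages, went the other way in D1, at 48.6 and 62.3 CPM against at most 44.3 in WT and 26.6 in V. The summed macrophage list did not separate the groups in that way, at 127 to 202 CPM in WT, 87.1 to 94.3 in the V libraries, 151 and 209 in D1, 40.7 in the D4 recipient, 9.53 and 12.5 in D5, and 121 and 132 in tVk12653. Axl alone made up 77.7 to 135 CPM of that sum in D1 and 100.2 and 118 CPM in tVk12653. Of the list, 6 markers were at 0 in D4, 5 in both D5 recipients and 6 in both tVk12653 libraries. The part of macrophage RNA in the 2 changes was not tested.

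**Figure D3:**
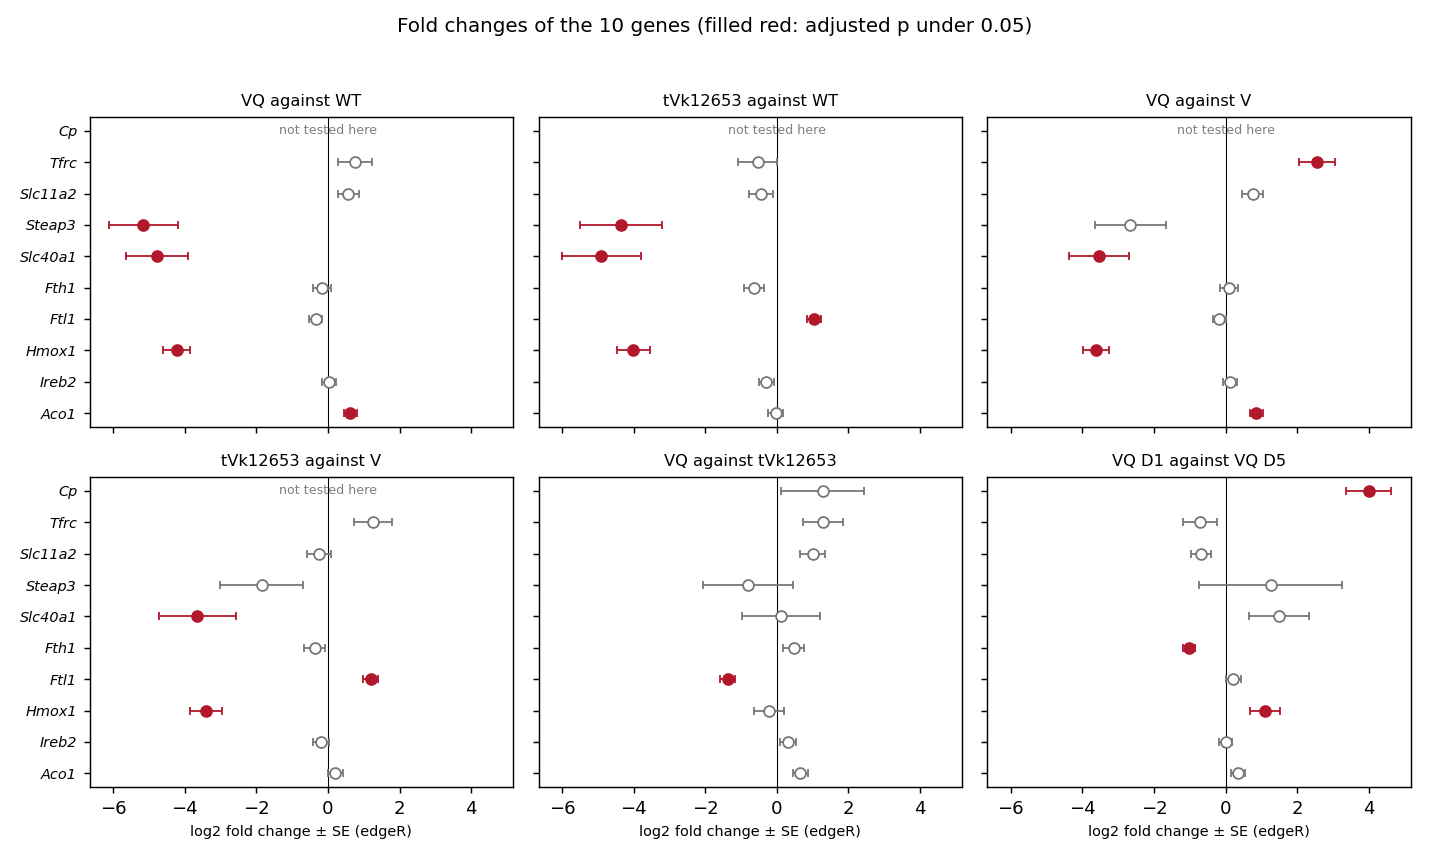
Log2 fold change of each gene with its standard error (edgeR) in 6 comparisons; filled red points have an adjusted p under 0.05, open points do not, and Cp is left out where WT or V enters. Hmox1 and Slc40a1 lie left of 0 and are called in all 4 comparisons of tumours with WT or V, Ftl1 is called in the 3 comparisons that involve tVk12653, and Cp in D1 against D5 lies at 4.0.

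The ferritin chains moved separately. Fth1, the heavy chain with ferroxidase activity (ENSMUSG00000024661, chr19:9980598-9985098), measured 266, 407 and 344 CPM in WT, 273, 266 and 304 in the V libraries, 191 and 187 in D1, 300.4 in the D4 recipient, 404 and 366 in D5, and 206 and 231 in tVk12653. D1 was the lowest group and D5 overlapped with WT. D1 lay below D5 by 1.03 ± 0.17 on the log2 scale (edgeR adjusted p = 2.34e-04), a call that held in each alternative run. Between arms Fth1 was not called, with a log2 difference of -0.63 ± 0.29 in tVk12653 against WT (edgeR adjusted p = 0.130) and -0.37 ± 0.29 in tVk12653 against V (adjusted p = 0.371). The first was called with the replicate block over all 13 libraries (-0.59, edgeR adjusted p = 0.00928), and both were when only those arms entered the fit (adjusted p = 0.0341 and 0.0414).

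Ftl1, the light chain that helps to form the iron core (ENSMUSG00000050708, chr7:45457944-45459884), was highest in tVk12653. Its levels were 47.5, 50.0 and 70.1 CPM in WT, 50.7, 43.7 and 55.1 in the V libraries, 53.5 and 40.1 in D1, 43.8 in the D4 recipient, 40.0 and 40.1 in D5, and 110 and 119 in tVk12653. Both tVk12653 libraries lay above all others, and every other library lay between 40.0 and 70.1 CPM. Ftl1 rose in tVk12653 by 1.03 ± 0.20 against WT (log2, edgeR adjusted p = 0.00565) and by 1.19 ± 0.20 against V (adjusted p = 0.00388). VQ lay below tVk12653 by 1.37 ± 0.20 on the log2 scale (edgeR adjusted p = 0.00448). Without tVk12653 replicate 2 the first and the last were at adjusted p = 0.0544 and 0.0506, and with only VQ and tVk12653 in the fit the last was at 0.126.

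Per kilobase of exon, Fth1 stood at 1.89 to 3.14 times Ftl1 in WT, 2.08 to 2.35 times in V, 1.38 and 1.80 times in D1, 2.65 in the D4 recipient, and 3.91 and 3.53 times in D5. In tVk12653 the ratio was 0.725 and 0.748, the lowest of all groups. The lengths join all annotated exons of a gene (3469 bp for Fth1, 1340 bp for Ftl1). Which chain has more RNA in tVk12653 depends on these lengths. Without division by length, Fth1 lay above Ftl1 there too, at 206 and 231 CPM against 110 and 119. Both ferritin genes have near-identical processed copies elsewhere in the mouse genome, and how reads shared with them were counted is not given in the sources used here, so their levels are uncertain.

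Only RNA was measured for the iron regulatory proteins, and of Ireb2 and Aco1 only Aco1 was called. Ireb2 (IRP2, ENSMUSG00000032293, chr9:54863789-54912530), which is degraded when iron is plentiful, lay between 58.6 CPM (a tVk12653 library) and 92.6 CPM (a WT library), every group overlapped with WT, and it passed no test. Aco1 (IRP1, ENSMUSG00000028405, chr4:40143081-40198338), which also serves as the cytosolic aconitase, measured 27.4, 27.6 and 28.1 CPM in WT, 20.2, 25.9 and 24.0 in the V libraries, 35.2 and 50.8 in D1, 43.1 in the D4 recipient, 33.6 and 34.7 in D5, and 28.4 and 26.0 in tVk12653. Every VQ library lay above every WT, V and tVk12653 library. Aco1 rose in VQ by 0.62 ± 0.18 against WT (log2, edgeR adjusted p = 0.0273) and by 0.86 ± 0.19 against V (adjusted p = 0.00910). The call against WT was lost without any 1 WT library (adjusted p = 0.0729 to 0.101), without D1 (0.0911), without the filter on low counts (0.0860), when only those arms entered the fit (0.0981) and without WT replicate 2 and D1 replicate 1 (0.0697), and that against V when only those arms entered the fit (0.0692). In VQ against tVk12653 the log2 difference was 0.65 ± 0.21 (edgeR adjusted p = 0.0749), which was called with the replicate block over all 13 libraries (0.56, adjusted p = 0.0285) and without line D5 (0.0404).

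V against WT has a second reading if the shared number of WT and V libraries marks pairs, which is not established. With that number as a block in a fit of these 6 libraries, 8 of the 9 genes passed the filter on low counts, 0 rose and 2 fell, where 1.31% of 10510 genes rose and 3.24% fell. Tfrc fell by 1.67 ± 0.28 on the log2 scale (edgeR adjusted p = 0.0191) and Slc40a1 by 1.20 ± 0.27 (adjusted p = 0.0273), and all V libraries lay below all WT libraries for both. In the fit of all arms they were at -1.79 ± 0.50 (edgeR adjusted p = 0.693) and -1.24 ± 0.74 (adjusted p = 1). Without pair 2 of the block, Tfrc stood at -1.18 (edgeR adjusted p = 0.0191) and Slc40a1 at -0.87 (adjusted p = 0.247). Steap3 did not pass the filter in that fit, and in the fit of all arms it stood at -2.49 ± 0.85 (edgeR adjusted p = 0.773), or -1.52 without WT replicate 2. In the blocked fits that tested it, Steap3 was called without pair 1 (-2.30, edgeR adjusted p = 0.0336) and without pair 3 (-2.95, adjusted p = 0.0106), and Hmox1 was called without pair 1 (-0.90, adjusted p = 0.00309). Steap3 passed the filter in those fits through WT alone. Of the 12 erythroid markers tested with the block 9 fell, as did 8 of 12 neutrophil and 2 of 9 macrophage markers, and their part in the values of Tfrc and Slc40a1 was not tested. Sex, by Ddx3y, and genotype cannot be told apart in V against WT.

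The wider iron and copper pathway was read from 98 further genes, grouped by role, of which 82 were tested between arms and 85 between lines. In VQ against WT 13 rose and 12 fell of 82, with a median log2 difference of -0.11 against 0.08 over all genes. In tVk12653 against WT 8 rose and 12 fell (median -0.17, all genes -0.05). In VQ against V 13 rose and 6 fell (0.03, all genes 0.08), and in tVk12653 against V 6 rose and 6 fell (-0.07, all genes -0.04). VQ against tVk12653 had 3 higher and 4 lower (0.29, all genes 0.18). The shares over all genes were 17.3% and 15.1%, 12.6% and 15.7%, 15.6% and 12.4%, 10.3% and 12.9%, and 5.97% and 4.19% in the same order, and the counts lie near or below them. In V against WT 0 of 82 passed without the block, and 0 rose and 3 fell of 76 with it.

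Metallothioneins rose in both tumour models. Of 12 copper genes tested, 4 rose and 2 fell in VQ against WT, and 3 rose and 1 fell in tVk12653 against WT. Over all genes 17.3% rose and 15.1% fell in the first, and 12.6% and 15.7% in the second, so the falls lie near or below the background. Mt1 and Mt2, small proteins that bind zinc and copper, were among those that rose. Mt1 stood at 163 to 277 CPM in WT and 107 to 206 in the V libraries, and at 846 and 869.5 CPM in D1, 1596 in the D4 recipient, 669.5 and 628 in D5, and 417 and 988 in tVk12653. Every tumour library exceeded every WT and V library, and Mt1 rose in VQ against WT by 2.32 ± 0.44 (log2, edgeR adjusted p = 0.00394) and in tVk12653 against WT by 1.72 ± 0.46 (adjusted p = 0.0218). Mt2 rose by 2.57 ± 0.54 and 1.69 ± 0.57 in the same comparisons (edgeR adjusted p = 0.00659 and 0.0496). Slc31a2, a copper transporter of inner membranes, stood at -1.87 ± 0.25 in VQ against V (a fall, log2, edgeR adjusted p = 0.00116), from 31.5 to 42.3 CPM in V to 6.35 to 16.9 in VQ.

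Partners of the transferrin receptor split by line. Trf, transferrin itself, measured 76.1 to 82.6 CPM in WT, 61.5 to 98.2 in the V libraries, 103 and 55.4 in D1, 127 in the D4 recipient, 1579 and 1733 in D5, and 27.5 and 34.4 in tVk12653. D5 stood above all other libraries and tVk12653 below all of them. D1 against D5 gave a log2 difference of -4.40 ± 0.28 (edgeR adjusted p = 1.77e-07). Trf also passed in VQ against WT (3.04 ± 1.00, edgeR adjusted p = 0.0411), although D1 overlapped with WT. Tfr2, the second transferrin receptor, stood at 9.93 and 20.6 CPM in tVk12653, at most 0.985 in V and at most 0.281 in VQ, and at 1.41, 10.3 and 1.42 in WT. It rose in tVk12653 against V by 4.49 ± 1.00 (log2, edgeR adjusted p = 0.0116), and VQ against tVk12653 gave -6.13 ± 1.03 (adjusted p = 0.00716). Slc46a1, a folate and heme transporter, rose in tVk12653 against WT by 2.00 ± 0.45 (edgeR adjusted p = 0.0100).

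Alas2, Hebp1 and Hp, 3 further genes of heme handling, fell in VQ against WT. Alas2, the erythroid enzyme that starts heme synthesis and also an erythroid marker here, stood at 16.9, 85.7 and 17.0 CPM in WT, 0 to 1.78 in the V libraries, 0.217 to 1.96 in VQ, and 0.231 and 0 in tVk12653, and fell in VQ against WT (log2 difference -5.24 ± 0.97, edgeR adjusted p = 0.00359). Hebp1, a heme-binding protein, fell in VQ against WT (log2 difference -4.41 ± 0.89, edgeR adjusted p = 0.00580) and was at 0 in both tVk12653 libraries. It held 2.46 to 17.7 CPM in WT and at most 1.48 CPM elsewhere. Both Alas2 and Hebp1 passed the filter on low counts through WT alone, so against WT only a fall could be called. Haptoglobin (Hp), which binds free haemoglobin and is stored in neutrophils, fell in VQ against WT (log2 difference -4.02 ± 0.85, edgeR adjusted p = 0.00682) and against V (-2.90 ± 0.82, adjusted p = 0.0273). WT replicate 2, with the most erythroid and neutrophil RNA, was the highest library for Alas2, Hebp1 and Hp, and the part of those cells in these falls was not tested. Of the 10 genes of heme synthesis, Alas2 was the only one called in VQ against WT, where 0 rose. Over all genes 17.3% rose and 15.1% fell in that comparison, so these counts lie near or below the background.

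**Figure D4:**
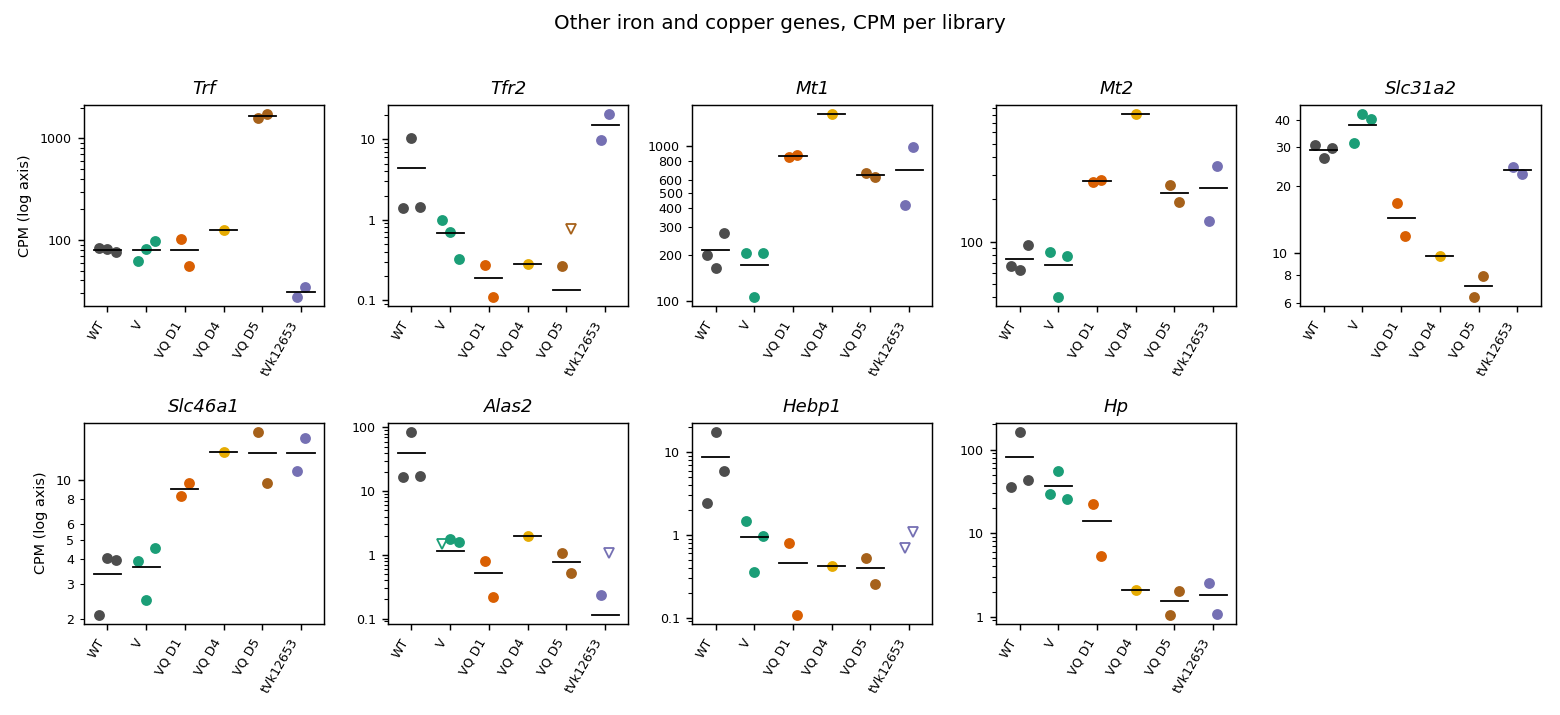
Level of 9 further iron and copper genes in CPM (log axis) in the 13 libraries by group; points are libraries, lines are group means, and an open triangle is a library at 0, drawn at its level of 3 counts. Trf reached 1579 and 1733 CPM in D5, Tfr2 was at 9.93 and 20.6 CPM in tVk12653, and Alas2 was at 85.7 CPM in WT replicate 2 and at most 1.96 CPM outside WT.

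Of the 85 further genes tested between lines, 14 were higher in D1 than in D5 and 17 lower, with a median log2 difference of 0.18 against 0.05 over all genes. These counts lie near the shares over all genes, 20.0% higher and 21.7% lower. Among mitochondrial iron-sulphur genes 0 of 18 were higher in D1, and 5 were lower, which is near the share over all genes. Epas1, a hypoxia-inducible transcription factor that acts on iron genes in gut and liver, stood at 12.9 and 9.44 CPM in D1 and at 0 in both D5 recipients (edgeR adjusted p = 2.44e-05). It also stood at 5.96 to 15.5 CPM in WT, 9.60 to 15.8 in V, 16.8 in D4, and 6.87 and 8.08 in tVk12653. D5 was thus the group apart. Abcg2, a transporter that exports porphyrins, stood at 10.5 and 9.66 CPM in D1 and at 0.265 and 0.255 in D5 (log2 difference 5.11 ± 1.12, edgeR adjusted p = 0.00162). WT held 3.16 to 17.3 CPM of Abcg2, a range that covers D1. Erfe, the hormone by which red cell precursors lower hepcidin, stood at 0 and 0.976 CPM in D1 and at 4.23 and 6.64 CPM in D5 (log2 difference -3.12 ± 1.12, edgeR adjusted p = 0.0397).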

How the data were processed

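The study measured RNA of 13 libraries by bulk sequencing. Per the labels, RNA came from an RNeasy Micro kit, and a stranded SMARTer kit for picogram amounts of total RNA gave the libraries. STAR 2.6.1d and the build GRCm38.p6 are named in the submitters' processing notes. The deposited table holds raw counts of reads per gene symbol, and the sources used here do not give the counting tool, annotation, strand setting or treatment of multiply aligned reads, so overlapping, antisense and near-identical genes may share reads.

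Here counts were scaled by TMM, and genes that passed filterByExpr (a count of 10 and a total of 15 at least) were tested by robust quasi-likelihood in edgeR 4.0.16 under R 4.3.3. P-values were adjusted by Benjamini-Hochberg across every gene tested, with a threshold of 0.05. The fit of arms had 11 units, with recipients of a VQ line summed and the tVk12653 recipients entered singly. For D1 against D5 the 13 libraries entered singly, each group with its own mean. Lengths and coordinates are from GENCODE vM21. Libraries of a group differed by 5.23 to 15.6 times counting error (chi-square per degree of freedom), so none was treated as 1 library deposited again, which does not show that they were separate animals. WT and V libraries with the same number had correlated deviations (r = 0.125 to 0.190, against -0.144 to -0.0379 for different numbers). The number was taken to pair them in an alternative fit. Deviations cancel within a group, so positive and negative r go together. WT replicate 2 and D1 replicate 1, with different numbers, reached 0.133, so the pairing is not established. Outside D4, same-number r with a tumour recipient ran from -0.133 to 0.0549. The tests were tried on simulated counts.

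The members, gene lists and naming rule were chosen with earlier results of these data known. Named were all 10 members, whatever their values, and from 98 further iron and copper genes up to 3 per comparison and direction with the largest change, an adjusted p under 0.05 and at least 5 CPM, of which the text gives those that bear on the members. The 5 genes most like Cp (log2 CPM, prior count 2), Myc, Nras, Sdc1, Ddx3y and marker genes were also eligible, and Vcam1 was picked from the macrophage list after its values were seen. Alternatives were relative log expression factors, no filter, a minimum count of 30, DESeq2 1.42.0, fits of 2 arms alone, single libraries throughout, the replicate block, and leaving out each library or line. The following were added after the data were seen: the block without each pair and the joint removal of WT replicate 2 and D1 replicate 1. The fit of D1 against D5 without WT replicate 2 was also added then.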

Additional observations from a re-analysis of the deposited data

Results flagged for a closer look

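The change of Ftl1 against WT differed between the tumour models. VQ minus tVk12653 was -1.37 on the log2 scale (edgeR adjusted p = 0.00448), with VQ at 40.0 to 53.5 CPM, WT at 47.5 to 70.1 and tVk12653 at 110 and 119. It stands here because the contrast between the models was tested directly and passed. The call was lost with only VQ and tVk12653 in the fit (edgeR adjusted p = 0.126), and tVk12653 is 2 recipients of 1 line.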

How the results depend on the processing

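Of 65 results for the members, 51 kept their direction in every alternative run. The calls of Hmox1 in the 4 comparisons of tumours with WT or V, of Tfrc in VQ against V, of Slc40a1 and Steap3 in VQ against WT, of Ftl1 in tVk12653 against V and of Cp and Fth1 in D1 against D5 held in each alternative that gave a value; the causes of the other changes were not tested. With all 13 libraries and the replicate number as a block, which enters recipients singly, the calls over all genes were 91 in V against WT, 6893 in VQ against WT, 5965 in tVk12653 against WT, 6417 in VQ against V, 5381 in tVk12653 against V and 5084 in VQ against tVk12653, with 1 member called in the first and 4 in the last. There Slc40a1 stood at -6.33 in VQ against WT and -1.33 in VQ against tVk12653, Cp at -0.21 in the latter, Aco1 at 1.57e-04 in tVk12653 against WT and Ireb2 at -0.028 in VQ against WT. The block in V and WT alone called 479 genes and 2 members, and without pair 1, 2 or 3 it called 691, 132 and 602 genes and 4, 1 and 3 members (Ireb2 at 0.071 without pair 3), where the plain fit called 0. V against WT gave 3 genes without the filter, 42 by DESeq2, 3 with single libraries and 2 in its 2 arms alone.

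Fits of 2 arms alone called 2040 genes in VQ against WT, 5164 in tVk12653 against WT, 1498 in VQ against V (2 members), 5246 in tVk12653 against V (5 members) and 26 in VQ against tVk12653 (0 members), where DESeq2 called 1981. With 1 library or line left out the counts ran from 2505 to 4516, 1087 to 2356, 1694 to 4010, 662 to 1691 and 138 to 2003 in the same order (members 1 to 4 in tVk12653 against WT and 0 to 2 in VQ against tVk12653), and 2160 genes were called in tVk12653 against WT without WT replicate 2 and D1 replicate 1. The last setting put Slc11a2 at 0.0046 in V against WT, Ireb2 at -0.096 in VQ against WT, Tfrc at 0.17 in tVk12653 against WT and Slc40a1 at -0.28 in VQ against tVk12653. Ireb2 in VQ against WT was -0.051 by relative log expression factors, -0.014 at a minimum count of 30, -0.045 by DESeq2 and -0.031 with single libraries, and in D1 against D5 -0.042 by relative log expression factors and -0.041 by DESeq2.

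With 1 library or line left out, the log2 difference ran through 0 for Slc11a2 (-0.40 to 0.0047), Ftl1 (-0.26 to 0.045) and Ireb2 (-0.24 to 0.033) in V against WT, Fth1 (-0.47 to 0.034) and Ireb2 (-0.11 to 0.12) in VQ against WT, and Tfrc (-0.81 to 0.17) and Aco1 (-0.066 to 0.035) in tVk12653 against WT. It also did for Fth1 in VQ against V (-0.22 to 0.28), for Cp (-1.55 to 1.80), Steap3 (-1.64 to 3.13), Slc40a1 (-1.21 to 1.16) and Hmox1 (-0.60 to 0.14) in VQ against tVk12653, and for Steap3 (-0.21 to 3.63) and Ireb2 (-0.091 to 0.10) in D1 against D5. None of these 14 was called with every library in. Depth limits Steap3 and Slc40a1 most, at 3 and 11 counts or fewer per tumour library.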
